A study of Mus musculus with 4 samples.

Results

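The regions described here are the widest stretches of open chromatin that DNase-seq found in mouse acute myeloid leukemia (AML) cells: hotspots of biological replicate 1, on autosomes, that were 2000 bp wide or more. They were chosen by that width alone, and 3402 of the 202621 deposited hotspots of replicate 1 met it (of 197281 on the autosomes). They are called wide hotspots below, and the other 193879 autosomal hotspots of replicate 1 are called narrower hotspots. In DNase-seq, nuclei are treated lightly with DNase I, an enzyme that cuts accessible DNA, and the cut ends are sequenced. A hotspot is a region where cuts are denser than their surroundings.

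The study comprised 4 libraries, 2 technical replicates of each of 2 biological replicates. Per the labels, both replicates were AML cells of strain C57BL/6J, registered as differentiated in vitro and derived from 1 donor record, with age and sex not given and no treatment, genotype change or control named. The authors deposited 1 hotspot list and 1 peak list per biological replicate, so no value below carries an error between libraries, and the number of reads is not known. Replicate 1 had 202621 hotspots covering 88.1 Mb and replicate 2 had 61915 covering 20.5 Mb. Whether the shorter list of replicate 2 reflects sequencing depth or the cells cannot be told apart.

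Promoters of active genes are kept free of nucleosomes by transcription factors and remodelling complexes, and DNase I cuts there readily. Many mammalian promoters lie in CpG islands, stretches rich in G, C and the dinucleotide CpG, which elsewhere in the genome is depleted because methylated cytosine mutates to thymine. Wide open regions in blood cells are known at genes that answer quickly to signals and at genes that set cell identity.

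The sequences below show how differently the wide hotspots are composed. Each is the strongest 150 bp replicate 1 peak of its hotspot, read on the plus strand of the RefSeq copy of GRCm38 (mm10), 5′ to 3′, with every CpG in capitals. The first 3 come from the widest hotspots, at the genes Fosb, Il3ra and Osr2.
Fosb (chr7:19301636-19301785): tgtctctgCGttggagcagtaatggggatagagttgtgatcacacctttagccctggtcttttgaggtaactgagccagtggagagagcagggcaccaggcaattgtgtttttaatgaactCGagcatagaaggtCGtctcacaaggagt
Il3ra (chr14:14345716-14345865): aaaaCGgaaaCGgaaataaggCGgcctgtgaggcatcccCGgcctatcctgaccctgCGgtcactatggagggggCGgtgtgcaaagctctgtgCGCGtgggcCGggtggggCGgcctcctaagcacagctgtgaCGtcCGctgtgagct
Osr2 (chr15:35295916-35296065): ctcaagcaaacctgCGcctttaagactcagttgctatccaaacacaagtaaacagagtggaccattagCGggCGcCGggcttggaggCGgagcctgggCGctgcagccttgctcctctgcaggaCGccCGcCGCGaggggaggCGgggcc
The next 3 come from the widest hotspots away from coding promoters: an intergenic one whose nearest coding gene is Nanos3, the one over the long noncoding RNA gene Neat1, and one in an intron of Ywhaz.
Intergenic, nearest Nanos3 (chr8:84197576-84197725): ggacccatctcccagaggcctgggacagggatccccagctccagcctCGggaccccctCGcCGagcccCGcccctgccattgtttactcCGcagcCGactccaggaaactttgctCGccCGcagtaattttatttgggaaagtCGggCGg
Neat1 (chr19:5845756-5845905): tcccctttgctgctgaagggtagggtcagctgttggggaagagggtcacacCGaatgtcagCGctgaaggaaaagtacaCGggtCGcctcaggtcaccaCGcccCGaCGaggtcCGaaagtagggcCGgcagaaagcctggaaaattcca
Ywhaz intron (chr15:36781056-36781205): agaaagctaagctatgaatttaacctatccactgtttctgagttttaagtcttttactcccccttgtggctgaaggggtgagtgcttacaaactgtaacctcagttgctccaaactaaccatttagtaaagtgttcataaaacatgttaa
The last 2 show the low end of CpG content, from intergenic hotspots nearest Gpr141 and Serpinb8.
Intergenic, nearest Gpr141 (chr13:19917276-19917425): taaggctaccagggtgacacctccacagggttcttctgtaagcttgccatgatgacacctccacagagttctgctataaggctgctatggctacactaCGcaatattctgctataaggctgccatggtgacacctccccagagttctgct
Intergenic, nearest Serpinb8 (chr1:107583996-107584145): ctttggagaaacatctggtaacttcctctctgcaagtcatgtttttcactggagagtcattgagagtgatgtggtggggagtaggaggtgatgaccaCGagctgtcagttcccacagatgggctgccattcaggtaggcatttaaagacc
The Il3ra peak held 12 CpGs in 150 bp, the Osr2 peak 11, the peak nearest Nanos3 10 and the Neat1 peak 9. The Fosb peak held 3, the peaks nearest Gpr141 and Serpinb8 held 1 each, and the Ywhaz intron peak held 0. The Fosb peak lay 8341 bp downstream of the gene's start, past the end of a gene body of 7356 bp, while the Osr2 peak lay 108 bp upstream of its gene start.

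Width in replicate 1 ran from 2000 to 11882 bp, with a median of 2423 bp. The limit fell inside a continuous range: 7 autosomal hotspots measured exactly 2000 bp, 5 measured 2001 bp and 4 measured 2002 bp, while 6 measured 1999 bp, 7 measured 1998 bp and 11 measured 1997 bp. The wide hotspots were 2762 of 2000 to 2999 bp, 481 of 3000 to 3999 bp and 159 of 4000 bp or more. They held 10.4% of all autosomal hotspot bases of replicate 1, and 99.9% of them stood at the highest −log10 q value in the list, 100, against 52.2% of the narrower hotspots. As q stops at that value, it does not rank them.

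Genes of the immediate early response, which are transcribed soon after a stimulus without new protein being made, held 5 of the 12 widest hotspots, and 4 of those 5 encode subunits of the transcription factor AP-1. The widest of all lay over Fosb, an AP-1 subunit, on chr7:19299009-19310890. It measured 11882 bp in replicate 1, and 5662 bp of it (47.7%) were covered in replicate 2 by 9 separate hotspots. It held 23 peaks of replicate 1 and 15 of replicate 2, with highest scores of 148 and 100, and CpG islands took up 28.1% of it. The next AP-1 gene was Jun, with 8995 bp in replicate 1 and 3938 bp (43.8%) covered in replicate 2, also in 9 pieces. Fos had a similar width, 8625 bp in replicate 1, but only 966 bp of it (11.2%) in 2 pieces in replicate 2. Junb had 7283 bp in replicate 1, of which 2436 bp (33.4%) were covered. Klf2, a zinc finger factor, had 7569 bp in replicate 1 and 1724 bp (22.8%) in replicate 2. In each of these 5 the gene start lay inside the hotspot, and the part open in replicate 2 included it, as the maps of 6 genes show for Fosb, Jun and Fos.

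The other 7 of the 12 widest were of mixed kinds. Il3ra, the α chain of the interleukin 3 receptor, had 11024 bp in replicate 1, which took in the whole gene body, and 3569 bp of it (32.4%) were covered in replicate 2. Osr2, a zinc finger factor best known from limb and palate development, had 10599 bp in replicate 1 and 8053 bp (76.0%) in replicate 2, although its highest peak scores, 133 and 49, were the lowest of the 12. Tnrc18, which encodes a chromatin protein, had 7907 bp in replicate 1 and the highest covered share of the 12, 82.4%. Vim, the intermediate filament vimentin, had 7132 bp with 28.4% covered. Hoxa7, a homeobox gene of the HOXA cluster, had 7077 bp with 488 bp (6.90%) covered, the lowest share of the 12. The hotspot at an alternative start of Nfix also measured 7077 bp, with 21.4% covered, and lay 1176 bp from the start of Lyl1, a basic helix-loop-helix factor of blood progenitors. The remaining one was intergenic on chromosome 8, 7641 bp wide, with 49.3% covered and its nearest coding gene start, that of Nanos3, at 11926 bp. The covered share therefore ran from 6.90% to 82.4% among these 12.

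Most wide hotspots lay at promoters. A transcription start site (TSS) of a protein-coding gene stood within 1 kb of 2743 of 3402 wide hotspots (80.6%, exact 95% binomial interval 79.3 to 81.9), against 14.4% of narrower hotspots and 15.5% of all autosomal hotspots. Such intervals cover counting only, not the spread between biological replicates, which the labels number without saying whether they were separate cultures or animals. A wide region reaches a TSS more easily, so the midpoint was also used: it lay within 1 kb of a coding TSS in 76.5% of wide and 13.1% of narrower hotspots. In the nearest class, 1000 to 1999 bp, the promoter share was already 50.3%, and 47.5% by midpoint. Of the other 659 wide hotspots, 108 overlapped an exon, 181 lay in introns and 370 were intergenic. Among these 659, 122 stood within 1 kb of the start of a noncoding or other annotated transcript, and 220 were over 50 kb from any coding gene start. Their median distance to a coding gene start was 27.3 kb. Within the wide hotspots as a whole, 2223 held a TSS of 1 coding gene, 443 of 2 and 11 of 3.

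CpG islands followed the same division. An island (at least 500 bp with a GC content of 55% or more and a ratio of observed to expected CpG of 0.65 or more) overlapped 2613 wide hotspots (76.8%, exact 95% binomial interval 75.4 to 78.2), against 7.37% of narrower hotspots and 8.56% of all. At 1000 to 1999 bp the share was 44.45%. The median GC content was 55.5% in wide and 48.4% in narrower hotspots, where the autosomes as a whole had 41.9%. The median ratio of observed to expected CpG was 0.622 in wide hotspots and 0.219 in narrower ones, near the autosomes' 0.194. Both marks went together in 2491 wide hotspots, which were promoters with an island. A further 252 were promoters without an island, 122 had an island but no coding promoter, and 537 had neither.

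**Figure D1:**
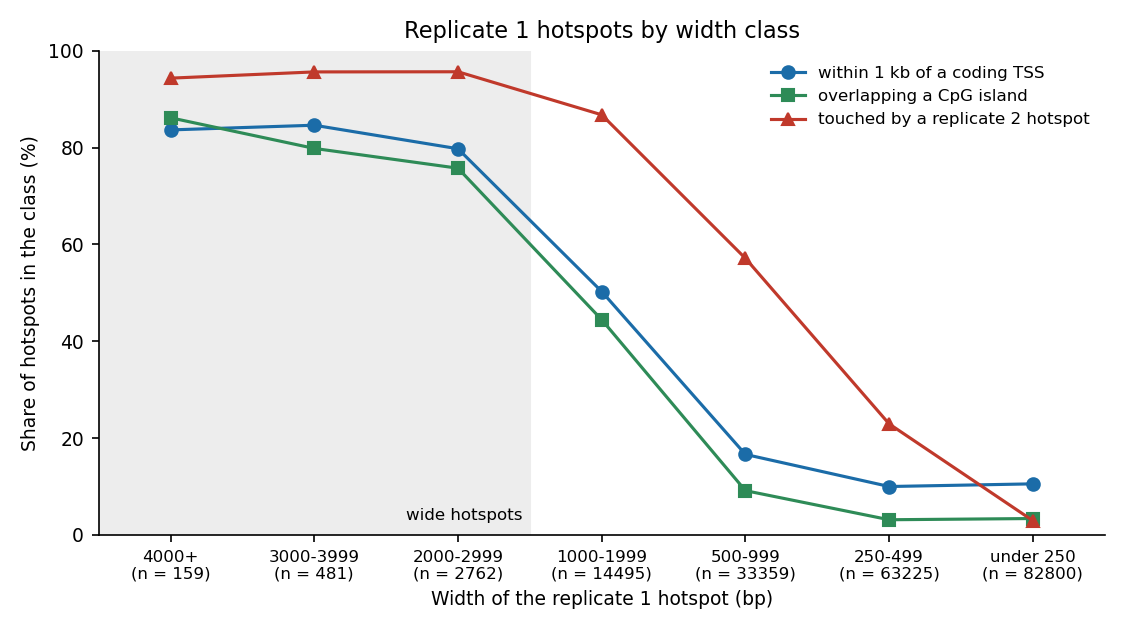
Share of autosomal replicate 1 hotspots (%) in each width class, widest at the left, that lay within 1 kb of a coding TSS (circles), overlapped a CpG island (squares) or were touched by a replicate 2 hotspot (triangles), with the number of hotspots under each class. The promoter share is 79.8% at 2000 to 2999 bp, 50.3% at 1000 to 1999 bp and 16.6% at 500 to 999 bp. The touched share is 95.7% at 2000 to 2999 bp and 2.95% under 250 bp.

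Replicate 2 was not used to choose the members, and nearly all of them recurred in it. At least 1 bp of a replicate 2 hotspot fell in 3252 of 3402 wide hotspots (95.6%, exact 95% binomial interval 94.8 to 96.3), against 25.1% of narrower hotspots and 26.3% of all. The share touched was 95.7% at 2000 to 2999 bp and 95.3% at 3000 bp or more, against 86.8% at 1000 to 1999 bp, 57.1% at 500 to 999 bp and 2.95% under 250 bp. A wide region is touched more easily than a narrow one, so the covered share says more. The median wide hotspot was covered over 42.8% of its width (quartiles 25.4 and 60.4%). At least 50% was covered in 1331 (39.1%), against 10.7% of all autosomal hotspots, most of which were far narrower. In the nearest class, 1000 to 1999 bp, the median was 37.2% and 32.1% were covered over at least 50%. The median covered share did not grow with width inside the group: it was 34.6% at 4000 bp or more, 38.3% at 3000 to 3999 bp and 44.0% at 2000 to 2999 bp.

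What replicate 1 gave as 1 wide hotspot was often several in replicate 2. It met 1 replicate 2 hotspot in 1283 cases, 2 in 1215, 3 in 504, 4 in 141 and 5 or more in 109, with a highest count of 12 over Neat1. In reverse, the autosomes of replicate 2 had 115 hotspots of 2000 bp or more, the widest of 3660 bp. All 115 touched a wide hotspot of replicate 1, and 113 lay wholly inside. A region of 2000 bp fits only into a hotspot at least as wide, so the limit largely set these counts. Of the 2432 autosomal replicate 2 hotspots of 1000 bp or more, 1235 (50.8%) touched a wide hotspot. Wide hotspots were touched by 10.6% of all autosomal replicate 2 hotspots and held 18.9% of their bases.

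The covered share depended on the kind of site. Promoters with an island had a median of 48.4% covered, wide hotspots with an island away from coding promoters 35.0%, promoters without an island 25.7%, and sites with neither 24.4%. The same order of the first and last classes held one width class down, at 1000 to 1999 bp, with 52.1% for promoters with an island and 25.6% for sites with neither. Islands away from coding promoters had 39.0% there and promoters without an island 28.25%. Each kind of site thus had a higher median at that width than among wide hotspots. With the members split into 4 equal parts by CpG ratio, from high to low, the medians were 57.7, 48.6, 41.7 and 25.5%.

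**Figure D2:**
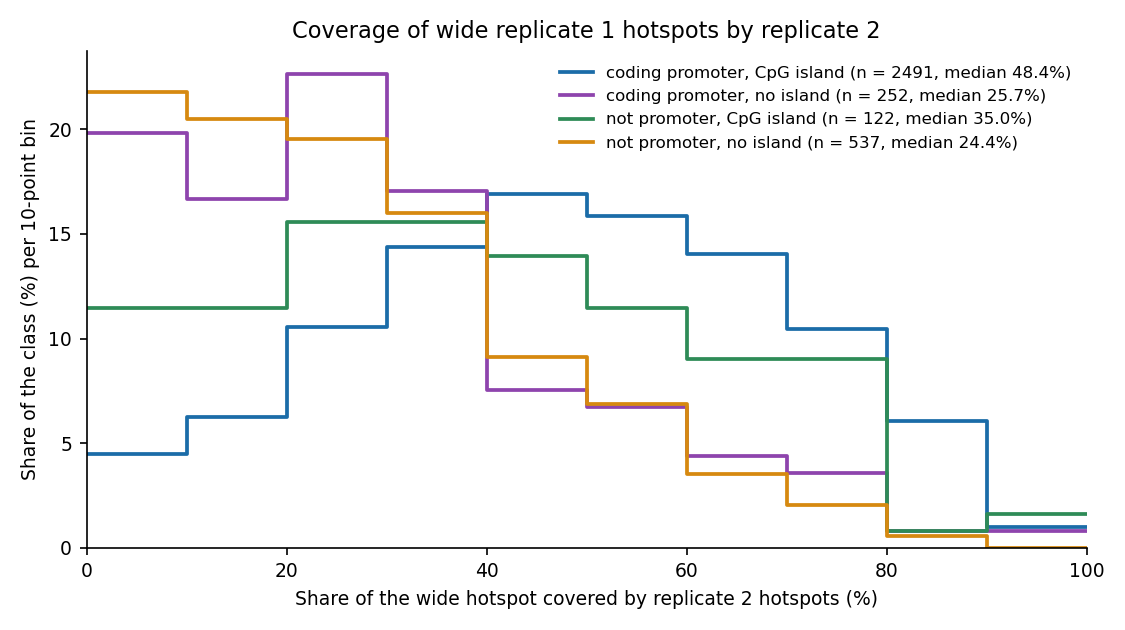
Distribution of the share of each wide hotspot covered by replicate 2 (x axis, %, bins of 10 points) within 4 classes, as the share of the class (y axis, %). The curve of the 2491 promoters with an island lies furthest right, at a median of 48.4%, and that of the 537 sites with neither lies furthest left, at 24.4%.

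Within single members the division ran the same way. Over the 3252 touched wide hotspots, the bases covered in both replicates had a GC content of 61.0%, a CpG ratio of 0.740 and 70.6% of their length in islands. The bases open only in replicate 1 had 51.0%, 0.469 and 30.3%. Among the 3146 members with at least 200 bp of each kind, the CpG ratio was higher in the shared bases in 2760 (87.7%). The same count was 295 of 436 (67.7%) where there was neither a promoter nor an island.

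Around gene starts the wide hotspots were lopsided. In the 1871 members with exactly 1 coding gene start, the hotspot reached a median of 968 bp upstream and 1509 bp downstream of it, and 1373 (73.4%) reached further downstream. Replicate 2 covered 87.3% of bases in the first 100 bp of these genes, and at least 50% of bases between 400 bp upstream and 499 bp downstream. Replicate 1 covered at least 50% between 1100 bp upstream and 1699 bp downstream, and islands between 500 bp upstream and 999 bp downstream. As the starts were taken from wide replicate 1 hotspots, the height and breadth of replicate 1 here follow from the width rule. The narrower reach of replicate 2 is therefore no result about the replicates.

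**Figure D3:**
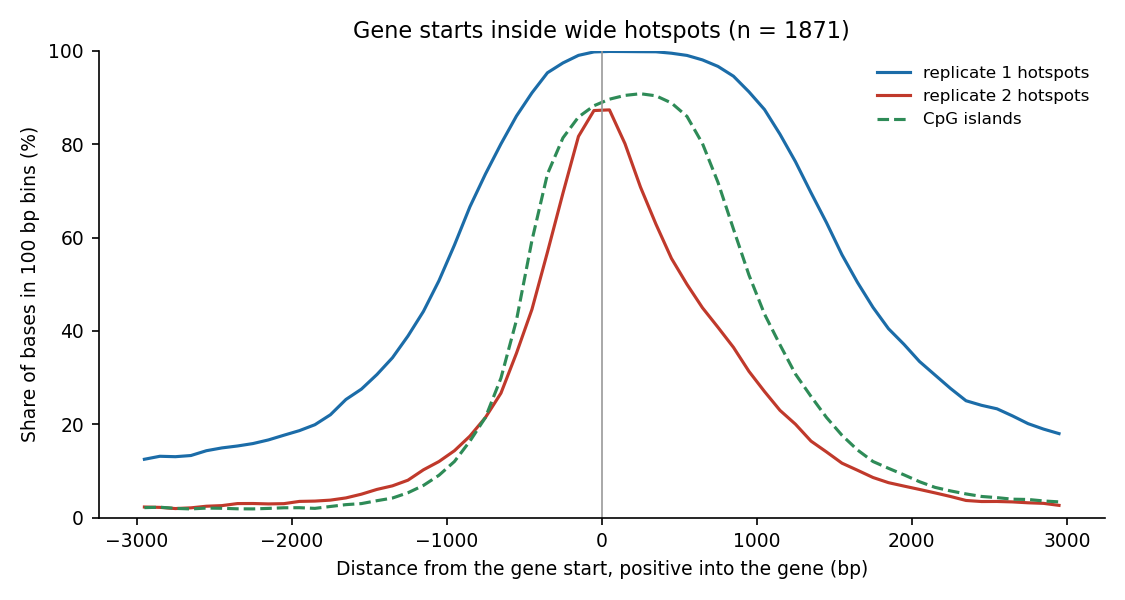
Share of bases (%) in 100 bp bins that lay in replicate 1 hotspots, replicate 2 hotspots or CpG islands, against distance in bp from the gene start for the 1871 gene starts that were alone in a wide hotspot. Replicate 2 peaks at the start, at 87.3%, inside a broader plateau of replicate 1 that leans into the gene. The height and breadth of that plateau follow from choosing starts in wide replicate 1 hotspots.

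Counted by gene, 3152 of 20780 autosomal coding genes had a wide hotspot within 1 kb of a TSS, which is 15.2% and is the background for every list below. Among the 15066 genes with any replicate 1 hotspot there, the share with a wide one was 20.9%, a closer background for lists whose genes nearly all had one. A TSS of any transcript counts, so some of these hotspots lie deep in a gene: 22 of the 111 list genes with one had it over 1 kb from the gene start. Of the genes with a wide hotspot, 97.7% also had a replicate 2 hotspot at a promoter, against 78.6% of the 11914 genes with only narrower hotspots there. As the lists were compiled with results of these data known, their counts are descriptions.

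Immediate early genes had the highest share, with 22 of 24 carrying a wide hotspot and a median width of 4050 bp, where all genes with one had 2441 bp. All 24 had a promoter hotspot in both replicates, and the 2 without a wide one came close: Fosl1 at 1943 bp and Atf3 at 1741 bp in replicate 1. Beside the AP-1 genes given above, Jund had 5336 bp with 56.3% covered in replicate 2, and Dusp2, a phosphatase that turns off MAP kinases, had 5170 bp with 30.4% covered. The lowest covered share was 3.89% of 3700 bp at Klf6, a zinc finger factor, in a hotspot 2586 bp from a gene start that was itself open in replicate 2. The highest was 89.8% of 2057 bp at Btg1, a brake on proliferation. The median covered share of the 22 was 33.2%, and 18 of them lay under the 47.8% median of all genes with a wide hotspot. Their hotspots were also wider, and all wide hotspots of 4000 bp or more had a median of 34.6% covered, close to that of the list.

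Myeloid transcription factors followed, with 14 of 18. Klf4 had 3840 bp with 21.3% covered in replicate 2, Gfi1, a repressor needed for granulocyte formation, had 3833 bp with 5.17%, and Cebpa, the driver of granulocyte commitment, had 3579 bp with 17.2%. Spi1, which encodes PU.1, had 3630 bp with 15.3% covered, a CpG ratio of 0.187 and no island. Of the 14, 13 lay under the all-gene median of covered share, and the list's own median was 22.6%. Irf2, an interferon response factor, was the one above it, at 78.2%, while the hotspot at Zeb2, a zinc finger repressor, lay 5920 bp from the gene start and was not covered at all. All 18 had some promoter hotspot in replicate 2.

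Stem and progenitor regulators had 11 of 19 and the HOXA-MEIS programme, a set of homeobox genes and partners linked to leukemia, 9 of 16. Hhex, a homeobox gene, had 4347 bp with 61.2% covered, and Myc 4205 bp with 24.1%. The wide hotspots counted for Mecom and Erg lay at internal starts, 38448 and 125846 bp from the gene starts, with 15.7% and 0% covered. Pbx3, a partner of HOX proteins, had 3924 bp with 56.2% covered and Cpeb2, a regulator of translation, 3894 bp with 63.9%. The hotspot shared by the start sites of Jmjd1c, a demethylase family member, and Reep3 had 3509 bp with 17.9% covered. Hoxa9 had 2371 bp, at 3665 bp from its gene start, with 9.78% covered. Meis1 had 2878 bp with 26.8% covered, which was the median of the 9 HOXA-MEIS genes, and Sox4 was the highest of them at 96.8%.

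Chromatin regulators had 16 of 22 and genes recurrently mutated in human AML 13 of 20, and these lists were covered more fully, at medians of 56.9% and 53.9%. Brd2, a reader of acetylated histones, had 6413 bp with 68.8% covered, and Arid1a, a subunit of the SWI/SNF remodeller, 4248 bp with 24.3%, at 1116 bp from its gene start. Kmt2a, a histone H3 methyltransferase on both lists, had 3741 bp with 53.9%. Kmt2c had 3166 bp and Ncor1 3074 bp, with 78.8% and 79.7% covered. Dnmt3a, a DNA methyltransferase, was the least covered of the mutated genes, at 18.02% of 3185 bp. Housekeeping genes had 7 of 14, with a median of 52.7% covered and 37.8% at Actb.

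Pan-leukocyte signalling genes had 12 of 19. An island overlapped 3 of the 12, against 2914 of all 3152 genes with a wide hotspot. Csf2ra, the α chain of the GM-CSF receptor, had an island, 3975 bp and 46.8% covered. Cd53, a tetraspanin, had none and a CpG ratio of 0.0678, yet 74.4% of its 3010 bp were covered in replicate 2. At Coro1a, an actin-binding protein, the hotspot lay 2691 bp from the gene start and measured 3084 bp, with 22.1% covered.

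Genes of mature myeloid cells carried wide hotspots at shares under the 15.2% of all genes, and with lists this small that is close to the background. Of 18 neutrophil granule genes, all had a replicate 1 promoter hotspot but only Ctsg, the protease cathepsin G, had a wide one, at 3661 bp with 7.51% covered. Among the others, Mmp9, a matrix protease, at 1998 bp, and Ncf1 and Ncf4, subunits of the phagocyte oxidase, at 1993 and 1789 bp, came close to the limit. Mpo, myeloperoxidase, reached 775 bp and Elane, neutrophil elastase, 405 bp. Monocyte and macrophage genes had 2 of 20, Adgre1 at 2223 bp and Cd68 at 2160 bp. T cell genes had 3 of 15 (Lef1, and Lck and Gata3 at internal or outlying starts 16385 and 9926 bp from the gene start), erythroid genes 1 of 11 (Tfr2) and fibroblast and endothelial genes 1 of 12 (Pdgfra). The Lef1 and Pdgfra hotspots had no base covered in replicate 2. No wide hotspot stood at the promoters of the B cell, mast cell with basophil and eosinophil, neuronal, hepatocyte, muscle or embryonic stem cell lists, of 11 or 12 genes each. For a list of that size, 0 is also close to the background. Pax5, of the B cell list, came near the limit at 1956 bp. Any replicate 1 promoter hotspot was found in 10 of 12 B cell, 9 of 11 neuronal and 7 of 12 embryonic stem cell genes. The muscle list had 6 of 12, the mast cell list 5 of 12 and the hepatocyte list 3 of 12.

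**Figure D4:**
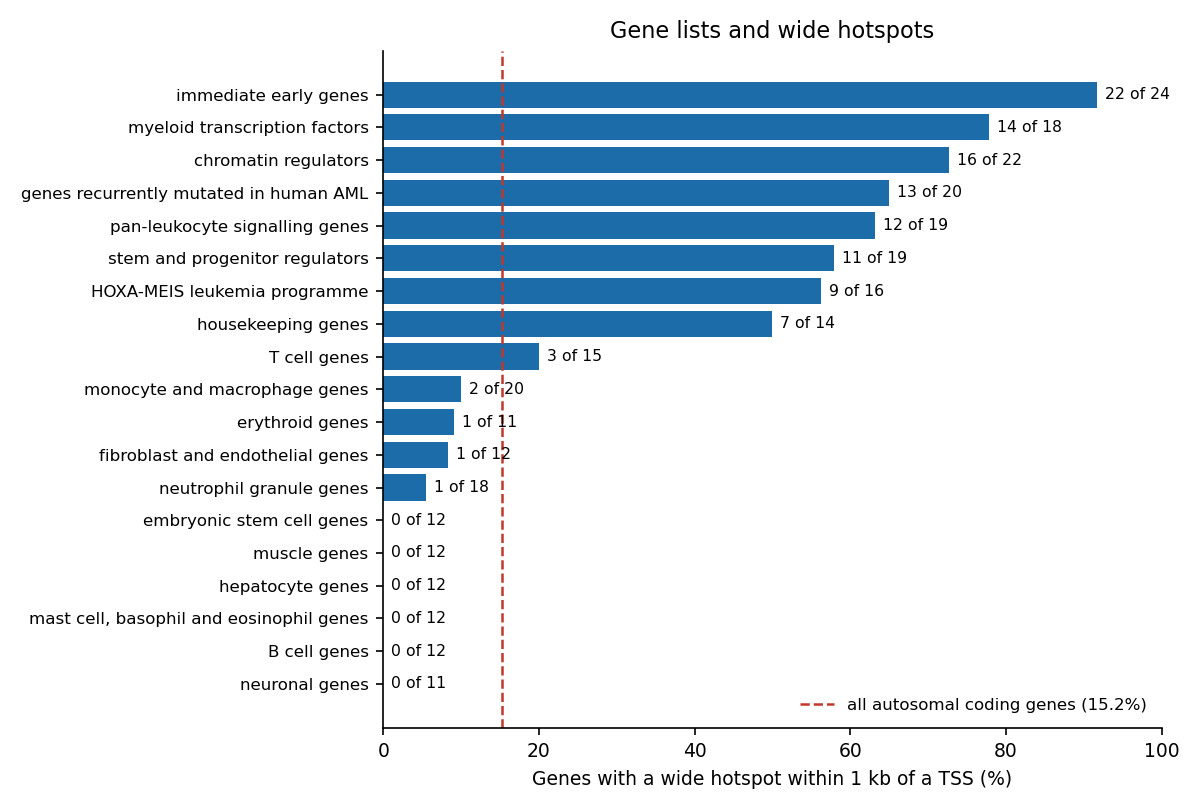
Share of the autosomal genes of each list (%) with a wide replicate 1 hotspot within 1 kb of a TSS, with counts beside the bars. The dashed line marks the 15.2% of all autosomal coding genes; immediate early genes stand highest at 22 of 24, and 6 lists of other cell types stand at 0.

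Away from coding promoters, 6 of the 8 widest hotspots stood at starts of noncoding genes. After the one near Nanos3 came the hotspot over Neat1, the RNA scaffold of nuclear paraspeckles, with 6958 bp and 64.4% covered in replicate 2. On chromosome 8, 1963 bp beyond the hotspot near Nanos3, a hotspot of 6239 bp held the starts of the microRNA genes Mir23a, Mir27a and Mir24-2, with 16.4% covered. The other 2 lay in introns. The one in Ywhaz, a 14-3-3 protein gene, had 6476 bp and 2.97% covered, and that in Tnpo1, a nuclear import receptor, had 6150 bp and 3.29% covered. Hotspots near Dlx2, a homeobox gene, and Rab10, a small GTPase, had 5944 and 5655 bp, with 5.55% and 42.7% covered. In the Ugt1a cluster of glucuronosyltransferases, a hotspot of 5967 bp had 14 peaks of replicate 1 that scored 85 at most and 10 pieces of replicate 2 that covered 39.4%.

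Some wide hotspots lay close together along the chromosomes. Their share of hotspots ran from 2.21% on chromosome 11 to 1.23% on chromosome 14, and 238 of 3383 gaps between neighbours were under 10 kb. Counting gene bodies with 10 kb on either side, 5 wide hotspots each fell at Trpm8, Sgms2, Col28a1, Adgre5, Tnpo1 and Dusp1. Only 2 very long gene models held more, Gm20388 with 23 over 4434882 bp and Fgfr2 with 7 over 2960900 bp. Dusp1, the phosphatase, and Adgre5, an adhesion receptor of leukocytes, had 20.2% and 20.1% of these bases covered in replicate 2. Trpm8, a cold-sensing channel, had 10.7%, Sgms2, a sphingomyelin synthase, 9.61%, Tnpo1 8.01% and Col28a1, a collagen, 2.89%.

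The most fully covered members were of moderate width. A hotspot 4039 bp from the start of Sox4, an HMG-box factor, had 97.5% of 2208 bp covered in replicate 2, and the one on the Sox4 promoter had 96.8% of 2371 bp. An internal start of Slc37a1, a sugar phosphate transporter, had 96.9%. The promoters of Aftph, which acts in vesicle traffic, Rnf4, a ubiquitin ligase for SUMO-tagged proteins, and Tiparp, an ADP-ribosyltransferase, had 96.5, 96.3 and 95.4%.

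At the other end, 150 wide hotspots had no base in replicate 2. They were promoters less often, in 76 cases (50.7%) against 82.0% of the touched ones, and had an island less often, in 39.3% against 78.5%. Their strongest replicate 1 peak had a median score of 105, where touched members had 147. The widest was in Trpm8, at an internal start 19701 bp into the gene, with 6170 bp and a highest score of 82. Pcdh7, a protocadherin, and Hivep2, a zinc finger factor, were untouched promoters of 5427 and 4390 bp that were mostly island, at 77.1% and 81.8%. A further pair, in Tra2b (5216 bp) and at an internal start of Col28a1 (4662 bp), had CpG ratios of 0.148 and 0.212, and the Col28a1 hotspot scored 28 at most over 12 peaks. In all, 87 wide hotspots had no peak scoring 100 or more, and 66 of these were untouched.

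Repeated sequence marked a few members. Repeats in the reference made up a median of 10.0% of a wide hotspot, and over 50% in 4 of them. As a further measure, chosen after the values were seen, the share of 12 bp words found more than once in the same hotspot had a median of 0.529%. It was over 50% in 3 members: at Muc3, a mucin gene with 2055 bp (61.9%), and in intergenic hotspots nearest Cdh12 (58.5%) and Vmn1r2 (50.5%). The lowest CpG ratio of all, 0.0502, was in the hotspot nearest Gpr141, where 48.7% of words recurred. The part of repeats in these widths was not tested.

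The 5 highest CpG ratios were all at promoters. So were 97.9% of the highest of the 4 equal parts by CpG ratio and 80.6% of all wide hotspots. Qk, an RNA-binding protein, had a ratio of 1.11 with 44.5% of 2953 bp covered, and Chd7, a chromatin remodeller, 1.09 with 27.8% of 2796 bp. Trim71, an RNA-binding ubiquitin ligase, had 1.09 and no base covered, Bmpr1a, a BMP receptor, 1.07 with 5.99%, and Yy1, a zinc finger factor, 1.06 with 60.4%. Among these 5 the covered share thus ran from 0% to 60.4%. Over all 851 members in the highest of the 4 equal parts by CpG ratio, the median was 57.7% (quartiles 39.4 and 71.9%). Among the lowest ratios, Serpinb8 and Pde7b were the nearest genes of intergenic hotspots at 0.0583 and 0.0595, with 26.0% and 24.2% covered, and Muc3 stood at 0.0640 with 78.6%. A hotspot far from any coding gene, nearest Hnf4g, had 0.0653 and no base covered.

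Wide hotspots held a median of 4 replicate 1 peaks each (1 to 23), 5 or more in 938, and a median of 2 replicate 2 peaks. Per kb they held 1.51 replicate 1 peaks, against 2.76 in narrower hotspots, where entries under 250 bp, with a median width of 150 bp, had 6.3. At 1000 to 1999 bp the figure was 1.475, so wide hotspots were not sparser in peaks than the nearest class. The count per region goes with the width that chose them. The 13500 replicate 1 peaks inside had a median score of 122, against 72 for peaks elsewhere, and 54.1% overlapped a replicate 2 peak, against 24.4% elsewhere. At like scores of 100 or more the order turned. Lower scores were not compared, and with a median of 72 most peaks elsewhere fell outside this comparison. For scores of 140 to 150, 94.0% of peaks in wide hotspots and 96.6% of peaks elsewhere were shared. For 120 to 139 the shares were 73.8% and 77.3%, and for 100 to 119 they were 41.1% and 48.3%.

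Short motifs were counted within 50 bp of peak centres on both strands, as letter matches only. Away from promoters, the PU.1-type ETS motif GAGGAAGT was found in 3.47% of 2590 peaks in wide hotspots (exact 95% binomial interval 2.80 to 4.25), against 6.72% of 176652 peaks in narrower ones. The C/EBP motif TTNCGCAA was found in 0.309% (0.133 to 0.608) and 0.725%, and the KLF/SP motif GGGCGGGG in 2.70% (2.11 to 3.40) and 1.25%. Both contain a CpG, as do the CTCF and promoter ETS motifs below, and CpG motifs went both ways. Away from promoters, the NRF1 motif GCATGCGC was also higher in wide hotspots, at 0.502% (0.2675 to 0.857) and 0.217%. The CREB motif TGACGTCA had 0.386% (0.185 to 0.709) and 0.3255%. The YY1 motif AAGATGGCG had 0.0772% (0.00935 to 0.279) and 0.122%. For CREB and YY1 the interval of the wide value holds the other. The part of CpG content in these differences was not tested. The RUNX motif TGTGGTTT was found in 2.24% (1.71 to 2.89) and 2.28%, and the AP-1 motif TGANTCA in 5.71% (4.85 to 6.68) and 6.36%, so that the interval of each wide value holds the other. At promoters, the KLF/SP motif was in 9.82% of 10910 peaks in wide hotspots (9.27 to 10.4), against 7.72% of 35960 in narrower ones. The GATA motif AGATAAG was found away from promoters in 1.24% (0.847 to 1.74) and 1.26%, and the CTCF motif AGGGGGCGC in 0.386% (0.185 to 0.709) and 0.657%. The promoter ETS motif ACTTCCGG, which overlaps the PU.1-type motif over the letters ACTTCC, was at promoters in 1.15% (0.955 to 1.36) and 1.71%.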

How the data were processed

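Hotspots and 150 bp peaks were deposited by the authors as 1 list of each per biological replicate, on mm10. Per the file headers, the 2 libraries of a replicate share an alignment. The deposited −log10 q value of a hotspot starts at 1.30 and stops at 100, and the deposited peak score is a whole number of unstated scale, used only within its list. The hotspot and peak caller and the read depth were not given in the sources used here.

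The members, gene lists, motifs and comparisons were chosen with earlier results of these data known. Coordinates are 1-based. A promoter is within 1 kb of any TSS of a coding gene in GENCODE M21. Base composition and soft-masked repeats came from the RefSeq GRCm38 sequence, from which islands were called in sliding 500 bp windows. Coverage is the share of a member's bases in replicate 2 hotspots. Named members are the 12 widest, the 8 widest off promoters, the extremes of coverage and CpG ratio, up to 4 per gene list, and the 8 genes with most members, plus entries at the width limit. Further list genes were named after their values were seen. Peak sequences at the high end of the CpG ratio are not reported here. Hotspots were the units and not replicates, so no test between samples was made and intervals are exact (Clopper-Pearson). Alternatives changed the width limit, merging, promoter window, island definition and overlap rule. The scripts (Python 3.11.15, numpy 2.4.6, pandas 2.3.3, scipy 1.17.1) were tested on simulated data, where all 39 planted islands and all 500 simulated coverages were recovered.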

Additional observations from a re-analysis of the deposited data

How the results depend on the processing

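Of 52 alternative values, 22 stayed within the 95% interval of the reported value (for counts, within 1.5 times of it) and 30 moved. With a limit of 1500 bp there were 7902 hotspots and 6379 genes, with 72.8% at promoters, 68.6% with an island, 94.2% touched, a median GC of 54.8% and a CpG ratio of 0.605. With 3000 bp there were 640 hotspots and 631 genes, with 84.4%, 81.4%, a GC of 56.0%, a ratio of 0.604 and a median covered share of 37.7%. Merging entries closer than 150 bp gave 5056 hotspots, with 74.4% at promoters, 70.4% with an island, 94.3% touched, 36.1% covered, a GC of 54.0% and a ratio of 0.573. The promoter share was 82.8% with a window of 2.5 kb, 84.2% with any annotated gene and, chosen after seeing the data, 76.5% by midpoint and 78.7% with the TSS inside. Islands of 200 bp gave 87.6%. Asking for at least 50% coverage gave 39.1%, replicate 2 hotspots with −log10 q of 2 or more 94.2% touched and 41.3% covered, and replicate 2 peaks, which are narrower, 14.0% covered. Members with a top score of 100 or more, also chosen after seeing the data, were touched in 97.5%. The width limits, merging and the top score rule admit other regions, the other settings score the members differently, and beyond that the cause was not tested. No paired analysis was possible because the result comes from no test. Depth was unknown, so a base open only in replicate 1 may have been below detection in replicate 2, and 1 list per replicate gives no error between biological replicates.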
